A study of Mus musculus with 12 samples.

Results

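Messenger RNA of the whole thymus was examined for the 8 genes *Kcnip3*, *Mall*, *Acoxl*, *Chchd5*, *Slc4a11*, *Tmem230*, *Prokr2* and *Lrrn4*, which lie near *Mertk* on mouse chromosome 2. They are 8 of the 479 genes in a table of FPKM values (fragments per kilobase of exon, corrected for library size), and they were picked by symbol among the genes of that table placed within 5 Mb of *Mertk*. The rule that put genes into the table is not given in the sources used here. Many of its genes differed: for 39.0% of them the values of WT and *Axl-/-Mertk-/-* mice did not overlap. Shares of the table given below are therefore not shares of all genes of the thymus. The 8 were proposed with their values in these same mice known. The differences between WT and *Axl-/-Mertk-/-* mice given here therefore had a part in the choice. They are described by levels, estimates and counts past the study's thresholds, with no p-value and not as evidence. Sex was compared with tests, but the choice also looked at uniformity among the mutants of both sexes, which favours genes with little difference between the sexes.

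Thymuses came from 12 mice at 1 month of age, 6 WT and 6 *Axl-/-Mertk-/-* mice labelled AMDKO, with 3 males and 3 females of each genotype. *Axl-/-Mertk-/-* mice lack the receptor tyrosine kinases Axl and Mer in every cell from conception on. WT C57BL6/J mice came from a supplier, the mutant line had been backcrossed on to C57BL/6 over many generations, and the lines were housed separately. *Axl* ranged from 11.9 to 16.9 FPKM in WT thymuses and from 1.92 to 2.45 FPKM in mutant ones, so every library had the level of its label. *Mertk* itself was not analysed here. Of the 9 defining thymocyte genes that were looked up (*Cd3e*, *Cd4*, *Cd8a*, *Rag1* and others), 0 are rows of this table, so the labelled tissue could not be checked on them. Depth was estimated from the steps between low values at about 18830000 to 24480000 reads per library.

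Mer, the product of *Mertk*, is a receptor through which macrophages recognise phosphatidylserine on dying cells by way of the ligands Gas6 and Pros1. In the thymus it is carried above all by macrophages that clear apoptotic thymocytes. The 8 neighbouring genes belong to no common pathway: they encode a receptor, a transporter, adhesion and membrane trafficking proteins, a calcium sensor and enzymes or proteins of peroxisomes and mitochondria. As general background, DNA close to a targeted allele is inherited together with it during backcrossing. The 6 mutants have the loss of both receptors in common, and its effects and those of any alleles carried along with the *Mertk* mutation cannot be told apart in this design. The DNA of the region was not examined in any mouse. Fewer cells of a type and less RNA per cell cannot be told apart either, since RNA came from the whole organ.

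Genes were placed with the GENCODE vM21 annotation of mm10, in which *Mertk* spans chromosome 2 from 128698956 to 128802894. Distances were measured between the nearest ends of the genes. On the side of lower coordinates lie *Kcnip3* (127456498 to 127522094, 1.18 Mb away), *Mall* (127704386 to 127729932, 0.969 Mb) and *Acoxl* (127838876 to 128123873, 0.575 Mb). On the other side follow *Chchd5* (129129700 to 129134134, 0.327 Mb), *Slc4a11* (130684113 to 130697519, 1.88 Mb), *Tmem230* (132239492 to 132247807, 3.44 Mb), *Prokr2* (132337733 to 132385447, 3.54 Mb) and *Lrrn4* (132868305 to 132880891, 4.07 Mb). *Acoxl* and *Chchd5* are read from the plus strand and the other 6 from the minus strand, so the direction of transcription relative to *Mertk*, itself on the plus strand, differs among them. No exon of any of the 8 genes shares a base with an exon of another annotated gene.

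The sequences before the start sites of *Prokr2*, *Mall* and *Lrrn4* are shown because these genes had the largest ratios between the genotypes among the 8. They are RefSeq sequences of GRCm38.p6 (mm10), all on the minus strand, and bases that lie in an annotated exon were left out. Capitals mark GC boxes, GGGCGG or CCGCCC on the other strand. The motif TATAAA, the motif CCAAT and the motif CACGTG were searched on both strands as well.
Prokr2, chr2:132385448-132385697: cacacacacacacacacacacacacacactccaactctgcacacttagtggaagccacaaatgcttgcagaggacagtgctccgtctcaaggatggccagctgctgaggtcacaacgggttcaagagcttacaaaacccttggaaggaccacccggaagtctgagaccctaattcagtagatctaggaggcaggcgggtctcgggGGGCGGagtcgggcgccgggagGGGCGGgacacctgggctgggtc
Mall, chr2:127729933-127730147: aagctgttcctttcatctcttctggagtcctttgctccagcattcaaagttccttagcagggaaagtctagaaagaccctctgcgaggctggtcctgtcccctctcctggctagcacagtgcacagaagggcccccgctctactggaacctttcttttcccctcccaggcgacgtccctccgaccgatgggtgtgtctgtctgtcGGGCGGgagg
Lrrn4, chr2:132880892-132881112: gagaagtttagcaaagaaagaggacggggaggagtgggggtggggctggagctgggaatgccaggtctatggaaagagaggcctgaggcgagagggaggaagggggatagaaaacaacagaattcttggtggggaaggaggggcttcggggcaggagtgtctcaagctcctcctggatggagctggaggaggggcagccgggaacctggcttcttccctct
The *Prokr2* window held 2 GC boxes, where 32.7% of 32851 windows of 250 bases hold at least 1. The *Mall* window, which is shorter, held 1, where 27.7% of windows of its length do. None of the 4 motifs was found in the *Lrrn4* window. Of windows of 250 bases, 12.4% hold TATAAA, 33.8% hold CCAAT and 6.0% hold CACGTG, and none of the 3 windows shown did. These matches describe the reference letters and were not tied to the RNA values.

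*Prokr2* was nearly absent from the mutant thymus, while *Mall* and *Lrrn4* were between 3 and 4 times as abundant there as in WT. *Chchd5* and *Tmem230* were also higher in the mutants, and *Kcnip3*, *Acoxl* and *Slc4a11* were lower, each by less than 2-fold in group means. Thus 4 of the 8 genes were lower and 4 higher, where 65.3% of the genes of the table were lower. For 6 of the 8 genes no value of either genotype fell within the range of the other, and this held for 39.0% of the table. The group means differed at least 3-fold for 3 of the 8 genes, against 4.59% of the table. The median size of the log2 ratio of mean FPKM was 0.85 for the 8 genes and 0.72 for the table. As the genes were chosen on this contrast, nothing is read from these shares.

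**Figure D1:**
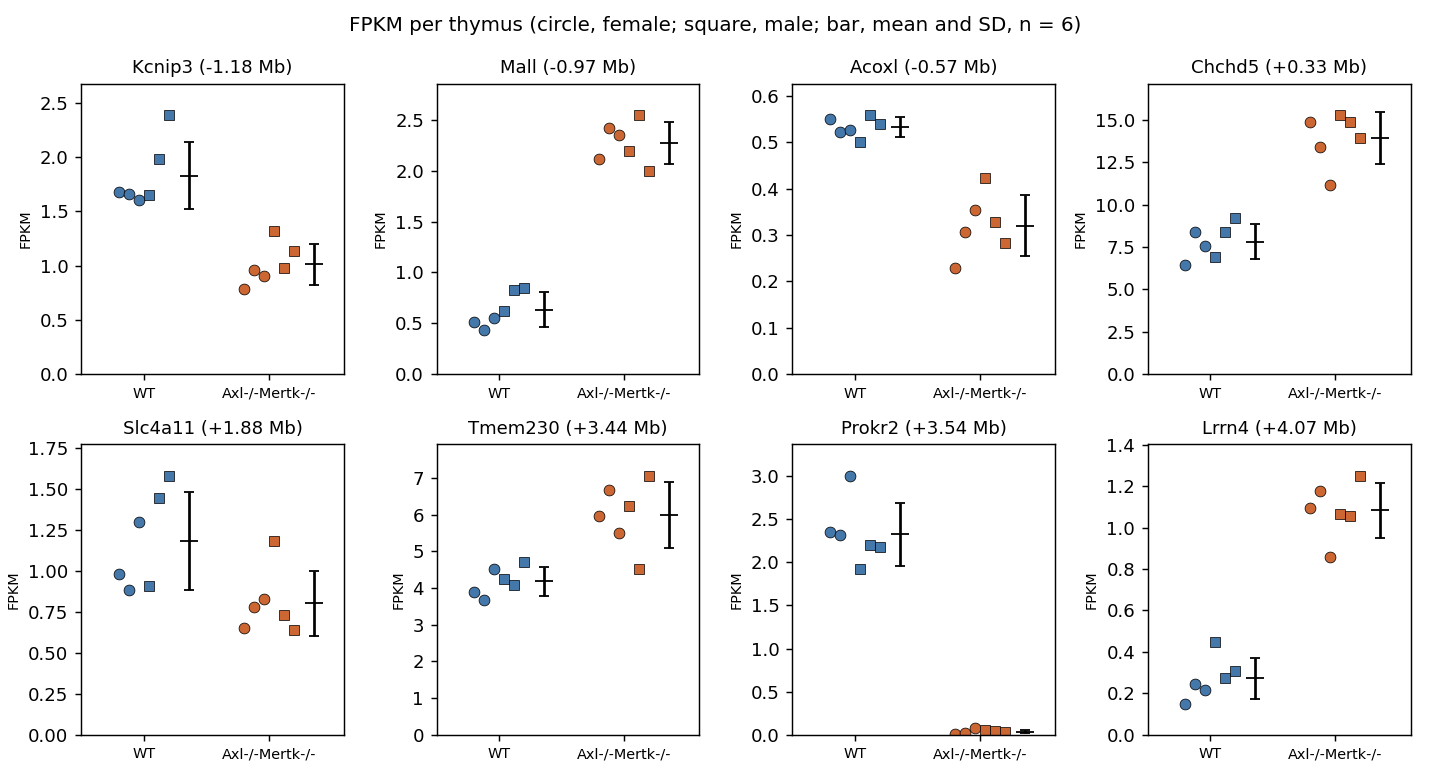
FPKM (vertical axes, linear and starting at 0) of the 8 genes in each of 12 thymuses, in order along chromosome 2 with the distance from Mertk in Mb in each title; circles are females, squares males, and bars give the mean and SD of 6 mice. Prokr2 lies between 1.92 and 3.01 FPKM in WT and at most at 0.074 FPKM in the mutants, while Slc4a11 and Tmem230 overlap between the genotypes.

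*Prokr2* encodes a G protein-coupled receptor for the secreted prokineticins, best known from the olfactory bulb and from neurons that control reproduction. It had 1.92 FPKM in the lowest WT mouse, a median of 2.26 and 3.01 in the highest. In *Axl-/-Mertk-/-* mice the lowest value was 0.010 FPKM, the median 0.0385 and the highest 0.074. The genotypes were far apart, with the highest mutant far under the lowest WT mouse. WT mice averaged 2.33 ± 0.365 FPKM (SD, n = 6). Mutants averaged 0.0388 ± 0.0230 FPKM (SD, n = 6), which is 1.67% of WT. In reads, recovered from the steps of the values, WT libraries held between 198 and 327, and the mutant libraries 1, 2, 8, 5, 4 and 3. The 23 mutant reads against 1447 in WT gave 1.68% after correction for depth, with an exact 95% interval of 1.06% to 2.53% that covers counting error only. Low signal was thus present in each of the 6 mutant libraries. The prokineticin genes *Prok1* and *Prok2* and the other receptor gene *Prokr1* are not among the rows of this table.

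*Lrrn4* encodes a leucine-rich repeat membrane protein that is known in the nervous system and marks mesothelial cells. Its lowest, median and highest values were 0.150, 0.258 and 0.446 FPKM in WT and 0.857, 1.08 and 1.25 FPKM in *Axl-/-Mertk-/-* mice. The highest WT mouse, WT_210 (male), stayed well under the lowest mutant, AMDKO_231 (female). The means were 0.273 ± 0.10 and 1.08 ± 0.133 FPKM (SD, n = 6 each), so mutants stood at 397% of WT. These values rest on 131 reads over the WT and 486 over the mutant libraries. *Lrrn3*, a relative on another chromosome, had 0.251 ± 0.069 FPKM in WT and 0.130 ± 0.0544 in mutants (SD, n = 6 each), with overlap of the genotypes. *Pdgfra*, the other of the 6 listed genes of mesothelium and stroma in the table, was lower in mutants, and *Msln* and *Upk3b* are not rows of it. *Lrrn4* is itself on that list, and the summed level of both ranged from 0.597 to 0.968 FPKM in WT and from 1.29 to 1.64 FPKM in mutants. The part of such cells in the difference was not tested.

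*Mall* encodes a small proteolipid of the MAL family, which sits in cholesterol-rich membrane domains. It ran from 0.432 over a median of 0.587 to 0.846 FPKM in WT and from 1.995 over a median of 2.27 to 2.55 FPKM in the mutants. The ranges were clearly separated, and the mutants were close to one another. The means were 0.632 ± 0.172 and 2.27 ± 0.207 FPKM (SD, n = 6 each), or 359% of WT, from 172 and 577 reads. Within WT the pair of highest mice were the males WT_212 and WT_211.

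*Tmem230* encodes a transmembrane protein of secretory and recycling vesicles. The lowest, median and highest values were 3.67, 4.16 and 4.71 FPKM in WT and 4.52, 6.10 and 7.07 FPKM in *Axl-/-Mertk-/-* mice. The mutant male AMDKO_203 alone lay inside the WT range, and the other 5 mutants were above every WT mouse. Mutants stood at 143% of WT, with means of 4.18 ± 0.389 and 6.0 ± 0.903 FPKM (SD, n = 6 each).

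*Slc4a11* encodes a membrane transporter of the bicarbonate transporter family that is known from the corneal endothelium. It ran from 0.882 over a median of 1.14 to 1.58 FPKM in WT and from 0.638 over a median of 0.754 to 1.18 FPKM in the mutants. The mutant male AMDKO_202, with 1.18 FPKM, lay at the WT mean, while the other 5 mutants had at most 0.829 FPKM, under every WT mouse. The means were 1.18 ± 0.298 and 0.801 ± 0.199 FPKM (SD, n = 6 each), or 67.7% of WT. Of the 4 lower genes it had the ratio of means nearest to 100%, and without AMDKO_202 the genotypes did not overlap.

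*Chchd5* encodes a small protein with paired cysteine motifs of the kind imported into the intermembrane space of mitochondria. It was the most abundant of the 8 genes, with a lowest, median and highest value of 6.46, 7.96 and 9.20 FPKM in WT and 11.2, 14.4 and 15.3 FPKM in *Axl-/-Mertk-/-* mice. Every mutant was above every WT mouse, and the female AMDKO_231 was the lowest mutant. The means were 7.81 ± 1.03 and 13.9 ± 1.53 FPKM (SD, n = 6 each), so mutants stood at 179% of WT. It is also the closest of the 8 genes to *Mertk*.

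*Acoxl* encodes a protein related to the acyl-CoA oxidases, the enzymes of the first step of fatty acid oxidation in peroxisomes. WT mice were alike, with a lowest value of 0.501, a median of 0.533 and a highest of 0.559 FPKM. The mutants ran from 0.228 over a median of 0.317 to 0.423 FPKM and were more spread out, but none reached the WT range. The means were 0.533 ± 0.0208 and 0.320 ± 0.0661 FPKM (SD, n = 6 each), or 60.1% of WT. They rest on few reads, between 28 and 37 in a WT library and between 15 and 26 in a mutant library.

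*Kcnip3* encodes a calcium-binding protein that modulates voltage-gated potassium channels and can act as a transcriptional repressor. It ran from 1.61 over a median of 1.67 to 2.39 FPKM in WT and from 0.786 over a median of 0.966 to 1.32 FPKM in *Axl-/-Mertk-/-* mice. The genotypes did not overlap, and the male AMDKO_202 was the mutant nearest to WT. The means were 1.83 ± 0.308 and 1.01 ± 0.187 FPKM (SD, n = 6 each), or 55.3% of WT. Its relative *Kcnip2*, on another chromosome, had 1.45 ± 0.387 FPKM in WT and 0.956 ± 0.151 in mutants (SD, n = 6 each), with overlap. *Kcnip2* and *Lrrn3* were the only ones of 37 listed relatives of the 8 genes that the table holds.

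The same differences look smaller on the deposited scale, log2(FPKM + 5), because the added constant exceeds 7 of the 8 WT means. On it, the limma estimates were -0.54 for *Prokr2* (standard error 0.0257), 0.56 for *Chchd5* (0.0601), 0.37 for *Mall* (0.0232), 0.26 for *Tmem230* (0.0547) and 0.21 for *Lrrn4* (0.0157). The lower genes *Kcnip3*, *Slc4a11* and *Acoxl* had -0.18, -0.09 and -0.06. The study's thresholds are 0.05 for the adjusted p and 0.5 for the size of the log2 fold change. Past both were 2 of the 8 genes, *Chchd5* and *Prokr2*, beside 6.05% of the table. With log2(FPKM + 0.1), 7 of the 8 passed, all but *Tmem230*, beside 80.4% of the table, and *Prokr2* had -4.13, *Mall* 1.72 and *Lrrn4* 1.70. With log2(FPKM + 1) there were 4 of the 8, beside 22.5% of the table. In males alone there was 1 of the 8, beside 5.01% of the table, and at a log2 threshold of 1 there were 0 of the 8, beside 0.418% of the table. These counts describe the genes and are not evidence of a change.

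Direction and size did not follow distance in any simple order. Going along the chromosome, mutants stood at 55.3% of WT for *Kcnip3*, 359% for *Mall* and 60.1% for *Acoxl* before *Mertk*. Beyond it they stood at 179% for *Chchd5*, 67.7% for *Slc4a11*, 143% for *Tmem230*, 1.67% for *Prokr2* and 397% for *Lrrn4*. In this order lower and higher genes alternated, and the direction changed in each of the 7 pairs of successive genes. These pairs are successive only among the genes chosen here, and other genes lie among them. With the other table genes of the neighbourhood included, the alternation broke. *Chchd5* and the next table gene, *Ckap2l*, were both higher, and *Slc4a11* and the next, *Siglec1*, were both lower. The alternation therefore describes the chosen genes only. The gene closest to *Mertk* differed less than the 3 genes with the largest ratios, which lay at 0.969, 3.54 and 4.07 Mb. *Tmem230* and *Prokr2* are 0.0899 Mb apart and differed in opposite directions.

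**Figure D2:**
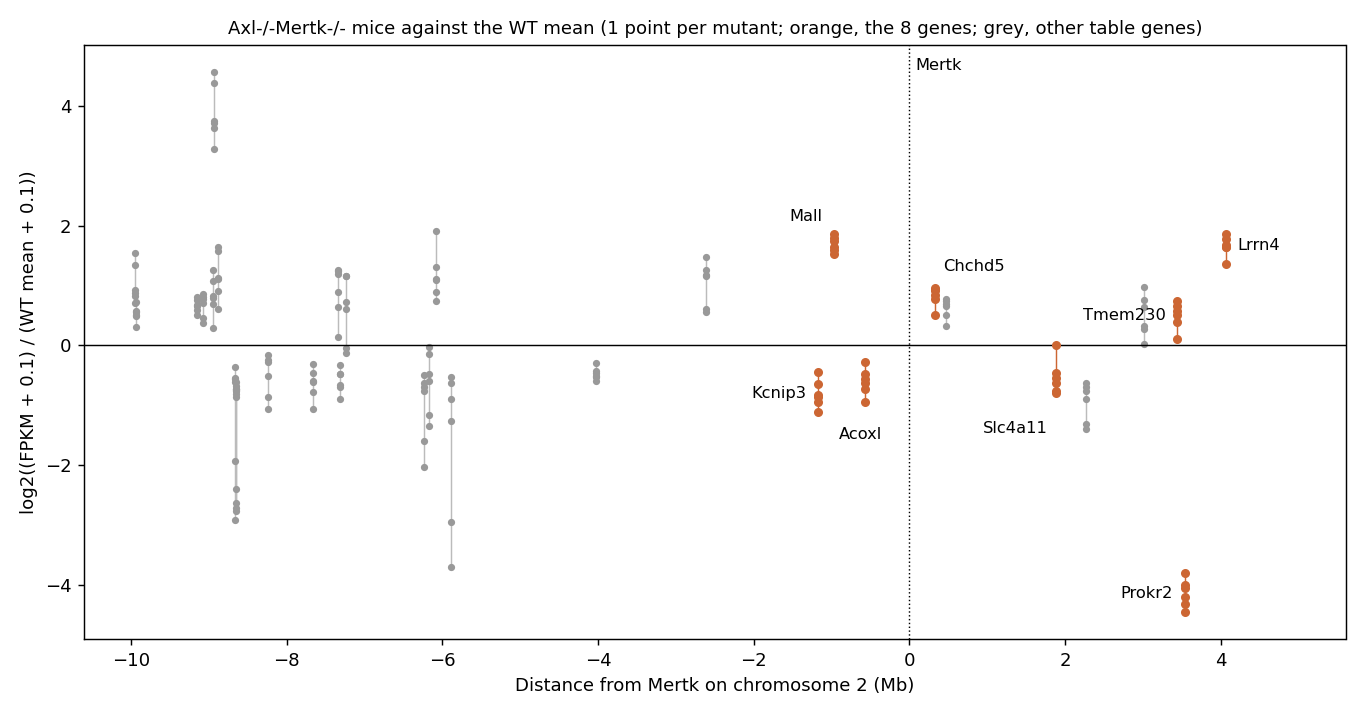
Log2 of (FPKM + 0.1) in each mutant over the WT mean + 0.1 (vertical axis) against distance from Mertk in Mb (horizontal axis), with 1 point per mutant mouse, the 8 genes in orange and the other table genes within 10 Mb in grey. Prokr2 lies lowest, Mall and Lrrn4 lie highest among the 8 genes, and grey points beyond 5 Mb occur on the side of lower coordinates only.

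Of the annotated genes in the neighbourhood few are in the table. Within 5 Mb on each side there are 129 protein-coding genes besides *Mertk*, and 13 genes of the table, the 8 described here and 5 others. Among these 5, mutants stood at 70.8% of WT for *Sema6d*, 350% for *Fgf7*, 154% for *Ckap2l*, 45.1% for *Siglec1*, a macrophage receptor, and 2.12 times WT for *5330413P13Rik*. The genotypes overlapped only for *5330413P13Rik* among the 5. Between 5 and 10 Mb the table holds 19 more genes, all on the side of lower coordinates, 9 lower and 10 higher in the mutants. The nearest gene of the table outside 5 Mb was *Sqrdl* at 5.89 Mb, with 8.17 ± 1.21 FPKM in WT and 3.33 ± 2.15 in mutants (SD, n = 6 each), and the farthest of the 8 inside was *Lrrn4* at 4.07 Mb.

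The 6 mutants were mostly alike for the 8 genes. The coefficient of variation of FPKM among mutants had a median of 16.8% over the 8 genes, against 24.1% over the table, and it lay under the median of the table for 6 of them, all but *Slc4a11* and *Prokr2*. By the SD of log2(FPKM + 1) it was 4 of the 8 and by that of log2(FPKM + 0.1) 7 of the 8. Among WT mice the medians were 16.3% and 20.9%. The value of 59.2% for *Prokr2* belongs to counts of 1 to 8 reads. For 4 of the 8 genes, *Mall*, *Chchd5*, *Slc4a11* and *Lrrn4*, the mutants varied less than WT, as did 42.4% of the table. Uniformity was part of how the genes were picked, so these values are a description. The 5 other table genes within 5 Mb of *Mertk* had a median coefficient of variation of 28.8% among mutants. Among these 5, *Sema6d* (7.94%) and *Ckap2l* (11.3%) lay under the median of the 8 genes. *Siglec1* (28.8%), *Fgf7* (33.0%) and *5330413P13Rik* (41.7%) lay over it, with low mutant means of 0.283, 0.279 and 0.141 FPKM. The spread of table genes in the region was thus mixed, and a median of 5 genes does not settle it.

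Single mutants were then placed between the genotype means of each gene, with the WT mean at 0% and the mutant mean at 100%. The distance between the lowest and the highest mutant on this scale was 2.8% for *Prokr2*, 33.9% for *Mall* and 48.6% for *Lrrn4*. It reached 141% for *Tmem230* and 142% for *Slc4a11*. The scale divides by the difference of the genotype means, so genes with large differences come out narrow by construction. The width is therefore no measure of uniformity between genes. *Prokr2* mutants ran from 0.010 to 0.074 FPKM, with a coefficient of variation of 59.2%. Which mutant lay nearest to WT differed by gene: the male AMDKO_202 for *Kcnip3*, *Acoxl* and *Slc4a11*, the female AMDKO_231 for *Chchd5*, *Prokr2* and *Lrrn4*, the male AMDKO_203 for *Tmem230* and the male AMDKO_264 for *Mall*. No mutant was near the WT mean for most of the genes.

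The table genes between 5 and 10 Mb had another pattern. Their median coefficient of variation among mutants was 35.5%, against 20.6% among WT mice. The females AMDKO_219 and AMDKO_231 were the pair farthest from WT for 16 of these 19 genes, but for 1 of the 8 genes, *Kcnip3*. The median place of AMDKO_219 and AMDKO_231 was 151% and 149% over the 19 genes, and 108% and 88.5% over the 8. The difference between the sets was not tested, since neighbouring genes of the same mice are not independent. Among the 19, *Gm28042* overlaps both *Jmjd7* and *Pla2g4b* in position, and reads shared between them were not examined.

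**Figure D3:**
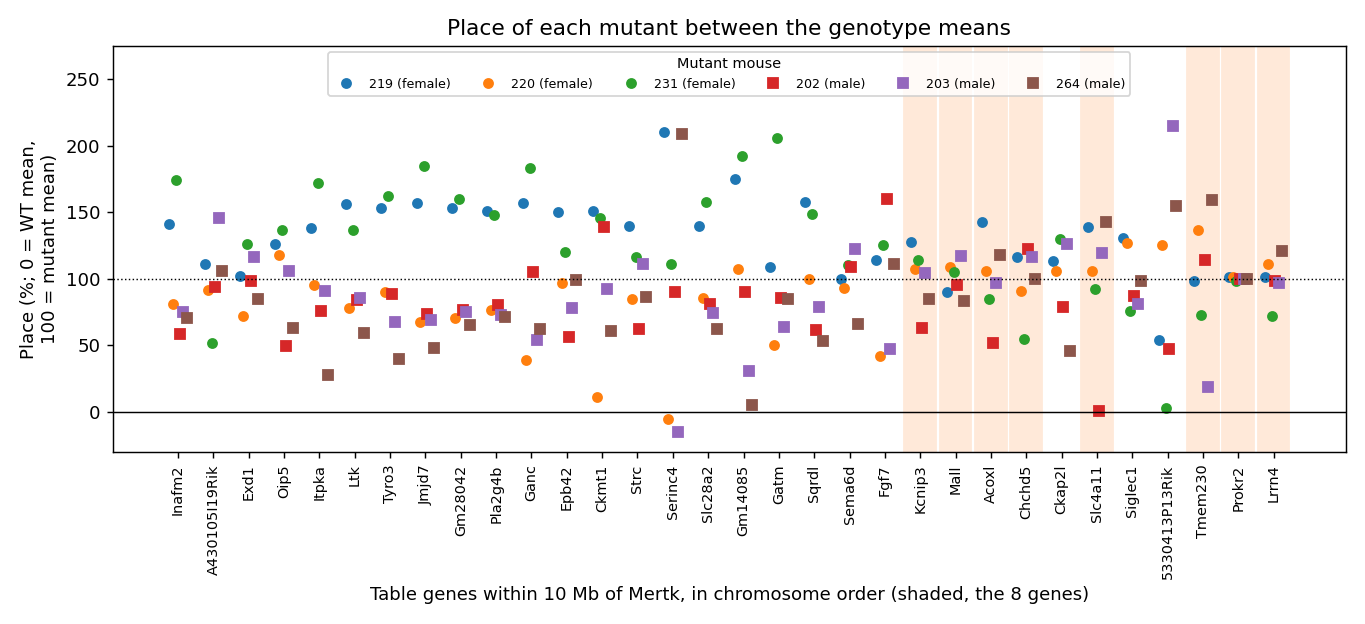
Place of each of the 6 mutants between the genotype means (vertical axis in percent, 0 at the WT mean and 100 at the mutant mean) for the table genes within 10 Mb of Mertk in chromosome order, with the 8 genes shaded; circles are females, squares males. Females AMDKO_219 and AMDKO_231 lie above the other mutants for most genes on the left, with median places of 151% and 149% between 5 and 10 Mb, but for only 1 of the 8 genes, Kcnip3.

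No effect of sex passed the test for any of the 8 genes, which is of limited weight because likeness among the mutants of both sexes was part of the choice. In the limma fit over all genes with genotype and sex, 0 of the 8 had an adjusted p under 0.05 for sex, beside 0.0% of the table. At an unadjusted p under 0.05 there was 1 of the 8, *Kcnip3*, beside 14.4% of the table. *Kcnip3* averaged 1.65 FPKM in WT females and 2.01 in WT males, and 0.88 and 1.14 in mutant females and males. On the deposited log2 scale males exceeded females by 0.0687 (standard error 0.0236), with an adjusted p of 0.256 by limma. *Prokr2* averaged 2.56 FPKM in WT females and 2.10 in WT males, a difference over all 12 mice of -0.0435 (standard error 0.0257, limma adjusted p 0.452).

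For the interaction of genotype with sex the same limit holds, since the genes were chosen on the genotype contrast and for mutants that were alike. Of the 8 genes, 0 had an adjusted p under 0.05 for the interaction, beside 0.0% of the table, and 0 an unadjusted p under 0.05, beside 3.13% of the table. The smallest adjusted p among the 8 was 0.962 by limma. *Mall* averaged 0.497 FPKM in WT females and 0.766 in WT males, and 2.29 and 2.25 in mutant females and males, with an interaction of -0.0787 (standard error 0.0416). *Prokr2* had an interaction of 0.0913 (standard error 0.0451). With 3 mice of each sex and genotype, differences of this size could not be told from the spread between mice.

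**Figure D4:**
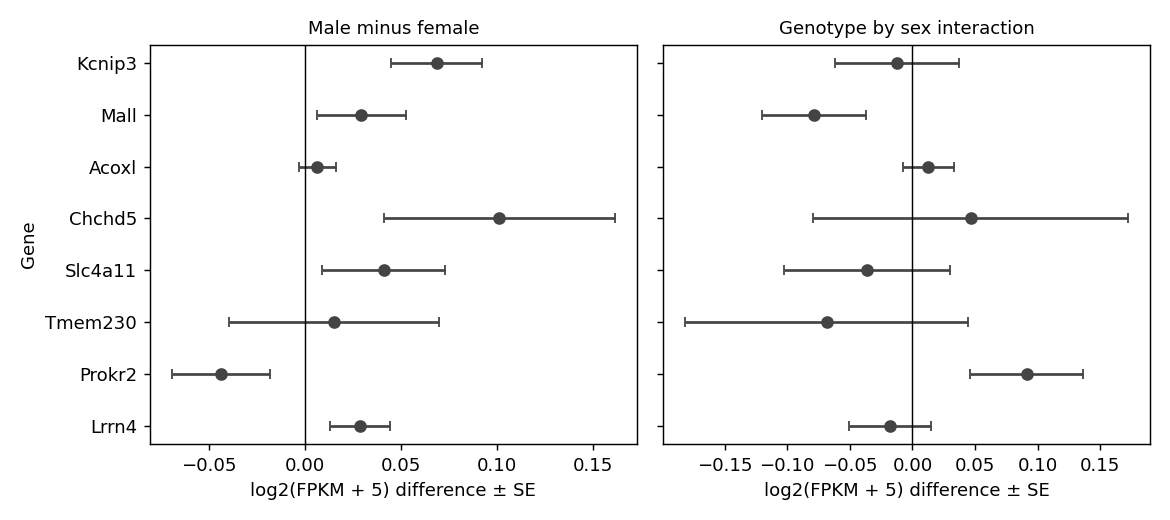
Difference between males and females (left) and interaction of genotype with sex (right) on the log2(FPKM + 5) scale (horizontal axes) for the 8 genes, as limma estimates with bars of 1 standard error from 12 mice. Kcnip3 has the smallest adjusted p for sex, 0.256, and no gene passes an adjusted p of 0.05 in either panel.

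For each gene the table gene with the most similar pattern among mice of the same genotype was looked up, as Pearson's r of log2(FPKM + 5) over 12 mice after the genotype means were subtracted. It was *Amigo2* for *Kcnip3* (r = 0.91), *Grin2c* for *Slc4a11* (0.90), *Tmem121* for *Lrrn4* (0.90), *Gria2* for *Mall* (0.87) and *Fibcd1* for *Prokr2* (0.85). For *Acoxl*, *Chchd5* and *Tmem230* the genes were *Rgma* (0.82), *Crp* (0.81) and *A630023P12Rik* (0.74). Only *Fibcd1* of these 8 is on chromosome 2, outside 20 Mb of *Mertk*. Its r with *Prokr2* rests mainly on the 6 WT mice, because *Prokr2* in mutants ran only from 0.010 to 0.074 FPKM. Among the 8 genes themselves the highest r was 0.76, between *Kcnip3* and *Slc4a11*. Each r is the highest of many and is given as a description, with library and depth shared within each mouse.

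Levels of macrophage markers differed with genotype in the same libraries. Of 14 listed genes of thymic macrophages, 9 are in the table and all 9 had a lower mean in mutants. Their summed level was 147 to 229 FPKM in WT and 80.8 to 124 FPKM in *Axl-/-Mertk-/-* mice. *Axl*, itself targeted, and *Siglec1* are among these 9. The sum rests mostly on *C1qa* and *Vcam1*, and the genotypes overlapped for *C1qa* and *Slc40a1*. Not all macrophage genes of the table were lower. *Trem2* and *Msr1*, which are off the list, were above every WT mouse in most mutants, with some overlap. Of 5 genes of dendritic cells the table holds *Ccl22*, at 26.9 to 50.4 FPKM in WT and 17.7 to 26.5 FPKM in mutants. None of the listed genes of thymic epithelium, B cells, erythroid cells, muscle or neutrophils is a row of the table. The part of cell makeup in the values of the 8 genes was not tested.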

How the data were processed

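Messenger RNA of whole thymus was sequenced from libraries of a stranded kit. Per the labels and methods of the study, the submitters' processing notes name CASAVA 1.8.2, FastQC, STAR 2.5.3a and HOMER 4.10.4 with mm10. The gene annotation and the use of strand are not given in the sources used here. The table the authors deposited holds log2 values, log2(FPKM + 5), for 479 genes and 12 mice, with no replicates pooled, and FPKM was recovered by inverting that formula. Because the values are normalized, the study's count model was replaced by limma 3.58.1 (R 4.3.3) on the deposited scale, with genotype and sex as terms and Benjamini-Hochberg adjustment over all 479 genes, and p-values are given for sex and the interaction only. The fits were tested on simulated data. P-values set a difference against the spread between mice. Tables and plots were made with Python 3.11.15, pandas 2.3.3, numpy 2.4.6, scipy 1.17.1 and matplotlib 3.10.9.

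Symbols were placed with GENCODE vM21, 472 of 479 of them. Reads were recovered for the 8 genes from the FPKM steps, using an effective length within 10% of an annotated one and depth from 47 genes. The length kept was the one that brought the values closest to whole numbers, so that closeness is no check on the reads. With it, at least 11 of 12 values of each gene came within 0.2 of a whole number. Intervals cover counting error only. Upstream sequences came from RefSeq GRCm38.p6, where 7 of the 8 genes had an entry, all but *Slc4a11*. The members and gene lists were chosen with earlier results of these data known. The genes named are the 8, *Axl*, the table genes near *Mertk*, listed relatives and markers, and the table gene most similar to each of the 8. *Sqrdl* was named as the nearest outside 5 Mb, and *Trem2* and *Msr1* as macrophage genes off the list, after seeing the data. Alternatives were other added constants, a minimum mean of 1 FPKM, no sex term, 1 sex alone, a stricter threshold, wider windows and each mouse left out.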

Additional observations from a re-analysis of the deposited data

Results flagged for a closer look

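The FPKM of *Slc4a11* in *Axl-/-Mertk-/-* male AMDKO_202, 1.179, stood apart from the other 5 mutants. Its gap to the nearest of them was 0.647 of the range of the 6 mutants, over Dixon's 95% critical value for 6 values. The same check was made in 16 groups (8 genes in both genotypes) and marked 1 of them, where chance marks about 1 in 20. *Slc4a11* had 81 reads in this library and between 43 and 63 in the other mutants.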

How the results depend on the processing

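The direction of the genotype difference of each of the 8 genes was compared under some of the alternatives. It was the same with other added constants, no sex term, 1 sex alone and each mouse left out, with 4 lower throughout. A minimum mean of 1 FPKM leaves 5 of the 8 genes. The number of the 8 genes past both thresholds, 2 on the deposited scale, was 4 with log2(FPKM + 1), 7 with log2(FPKM + 0.1), 1 in males alone (*Chchd5*) and 0 with a threshold of 1, beside 22.5%, 80.4%, 5.01% and 0.418% of the table, and it stayed at 2 with any mouse left out. An added constant of 5 shrinks the fold changes of low genes by construction. Genes without overlap numbered 6 to 7 with single mice left out: 7 without AMDKO_202, when *Slc4a11* no longer overlapped, and 7 without AMDKO_203, when *Tmem230* no longer did. The count for sex and that for the interaction stayed at 0 with any mouse left out. Genes under the table's median variation among mutants numbered 6 by the coefficient of variation, 4 by the SD of log2(FPKM + 1), 7 by the SD of log2(FPKM + 0.1), 5 to 7 with single mice left out, and 7 when set against the table genes at 5 to 10 Mb, an alternative chosen after seeing the data. Other table genes near *Mertk* numbered 5 within 5 Mb, 24 within 10 Mb and 29 within 20 Mb. *Acoxl* and mutant *Prokr2* rest on few reads, which limits their precision. No paired analysis was possible because the groups share no replicate numbers.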
